A study of Homo sapiens with 12 samples.

Results

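Wild-type PPARγ occupied 1289 sites in gene deserts, here the stretches of the hg38 genome more than 100 kb from every protein-coding gene. The sites came from the peak list that the authors called on the pooled wild-type libraries of a chromatin immunoprecipitation sequencing (ChIP-seq) study. A pooled peak on chromosomes 1 to 22 or X was kept if it overlapped a peak in each of the 2 single-library lists, here called a reproducible peak, and if its summit lay in a desert. Of 25164 pooled wild-type peaks, 8033 were reproducible (31.9%), and 1289 of these lay in deserts (16.0%). The choice used position and presence in both libraries, and not the mutant. Presence in both libraries favours strong peaks: the median fold, the authors' enrichment of tags over the caller's background, was 6.23 for all 4147 pooled desert peaks and 9.09 for the 1289.

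The cells were MCF10A-NeuT, derived from the human breast epithelial line MCF10A and carrying NeuT, an activated form of the ERBB2 receptor. They were infected with pMSCV-IRES-GFP retrovirus made in HEK-293T cells and stably expressed either wild-type PPARγ or the KQ mutant, named for 2 neighbouring lysines changed to glutamine. Both groups shared the culture medium, DMEM with fetal bovine serum and antibiotics, and the labels mention no deletion of the cells' own PPARG gene. An antibody to PPARγ is named in 2 places of the labels and would also pull down receptor made from that gene, whereas the design text speaks of Flag. Each group had 2 ChIP libraries and 1 pooled list. Whether the 2 came from separate cultures is not in the labels, and their spread may be technical only. Of the 12 libraries in the series, those of vector cells and those of input DNA were not analysed here. Peak lists hold no expression, so the labelled cell type was not checked against its markers.

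PPARγ is a nuclear receptor that binds DNA together with the retinoid X receptor, classically at a direct repeat of AGGTCA with a spacer of 1 base. It is best known for switching on fat storage and fatty acid genes, and most of its sites lie far from gene starts. Gene deserts often border developmental transcription factor and neuronal genes and can hold enhancers that act over long distances. A site in such a stretch cannot be assigned to a gene from its position, so the genes below are neighbours and not targets.

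Few desert sites lay at the start of a non-coding gene. A desert here is free of protein-coding genes only: 419 of the 1289 summits (32.5%) lay inside the span of a long non-coding RNA (lncRNA) gene, and 131 were more than 100 kb from every annotated gene of any kind. Of the other reproducible peaks between protein-coding genes, 635 (23.2%) lay inside a lncRNA span. The RefSeq promoter table (GRCh38.p14, the assembly of hg38) gives 250 bases before and 50 bases after a gene start. Desert peaks overlapped 10 of these windows, each of a lncRNA gene, and no such count is given here for other peaks. The windows of 4 genes are printed because they show the DNA under a desert summit: LINC01392 and LINC03055 had the highest fold of the 10 peaks, LOC105375170 was the only one of the 10 with a pooled KQ peak, and LOC124902533 was the only one with a close match to the PPAR element. Each runs 5′ to 3′ along the gene's strand, and capitals mark the 21 bases centred on the wild-type summit.
LINC01392, chr7:115231306-115231605, minus strand: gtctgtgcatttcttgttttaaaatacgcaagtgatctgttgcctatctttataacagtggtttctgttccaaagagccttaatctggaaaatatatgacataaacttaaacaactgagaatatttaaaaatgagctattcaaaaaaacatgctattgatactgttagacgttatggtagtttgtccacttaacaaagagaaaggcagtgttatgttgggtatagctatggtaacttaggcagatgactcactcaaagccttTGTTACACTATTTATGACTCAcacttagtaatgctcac
LINC03055, chr6:6885423-6885722, plus strand: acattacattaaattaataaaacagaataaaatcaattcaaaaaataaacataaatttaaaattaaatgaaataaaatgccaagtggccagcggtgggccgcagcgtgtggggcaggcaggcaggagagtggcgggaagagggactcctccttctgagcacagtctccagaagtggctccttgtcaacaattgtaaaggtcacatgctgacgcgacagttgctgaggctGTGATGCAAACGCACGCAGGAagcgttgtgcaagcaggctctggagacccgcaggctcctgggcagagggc
LOC105375170, chr7:16989968-16990267, plus strand: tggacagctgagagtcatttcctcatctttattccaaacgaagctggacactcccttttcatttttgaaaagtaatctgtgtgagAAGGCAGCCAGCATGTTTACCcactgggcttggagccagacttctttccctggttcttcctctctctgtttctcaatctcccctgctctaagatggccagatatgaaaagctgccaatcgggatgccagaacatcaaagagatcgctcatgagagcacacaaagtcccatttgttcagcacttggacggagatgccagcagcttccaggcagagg
LOC124902533, chr10:44576952-44577251, plus strand: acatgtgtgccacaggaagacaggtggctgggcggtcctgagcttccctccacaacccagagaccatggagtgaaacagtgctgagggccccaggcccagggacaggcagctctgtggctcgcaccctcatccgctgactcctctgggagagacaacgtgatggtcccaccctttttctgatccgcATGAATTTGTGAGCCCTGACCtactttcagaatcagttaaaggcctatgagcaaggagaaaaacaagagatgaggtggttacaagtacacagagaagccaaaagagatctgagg

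The summits of these 4 peaks lay near the gene starts. The distance from summit to start was 22 bp at LINC01392, 11 bp at LINC03055, 155 bp at LOC105375170 and 54 bp at LOC124902533. Fold was 15.1 at LINC01392, between MDFIC and TFEC. It was 8.39 in library 1 and 10.6 in library 2, from 27 and 12 tags at the summit. At LINC03055, between LY86 and RREB1, the fold was 13.6, with 16 and 15 tags in the 2 libraries. LOC105375170 lies in the desert between AGR3, the nearer gene at 108.1 kb, and AHR, which encodes the aryl hydrocarbon receptor. The fold there was 11.8, with 42 and 14 tags, and the pooled KQ peak had a fold of 3.81. At LOC124902533, beyond CXCL12, which encodes a chemokine, the fold was 11.5, with only 10 and 8 tags.

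A search for the PPAR element found a close match in 1 of the 10 windows. The motif, 2 copies of AGGTCA in the same direction with any 1 base between them, was searched on both strands, allowing 2 mismatches. The match was TGAGCCCTGACCT in the LOC124902533 window, which reads AGGTCAGGGCTCA on the opposite strand. It spans bases 196 to 208 of the window, and the summit is base 197. Of 34961 promoter windows of the same length, 2.96% held such a match, and of the 12829 windows of lncRNA genes 3.63% did. A second motif, TGANTCA, the site of AP-1 factors, which was looked for only after the sequences had been seen, was in 3 of the 10 windows, in 10.3% of the lncRNA windows and in 7.68% of all windows. The LINC01392 window held it at 2 places, bases 245 to 251 and 277 to 283, on both sides of its summit at base 273. A match is a description of these letters, and the DNA under the other desert peaks was not examined because no genome sequence was used here.

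Desert sites and the other reproducible sites had nearly the same median fold. The pooled fold of desert peaks ranged from 3.12 to 27.2 with a median of 9.09 (quartiles 7.28 and 11.5). The 6744 other reproducible peaks, of which 4012 lay inside a protein-coding gene span, had a median of 9.0 (quartiles 7.17 and 11.4). The difference of the medians was 0.015 on the log2 scale. It was 0.026 in library 1, where the medians were 7.40 and 7.27, and -0.021 in library 2, where they were 7.08 and 7.18, so the sign differed between the libraries. Peaks are not replicates of a condition, and no test was made over them.

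The number of tags behind these folds was slightly lower in deserts. Tag counts were recovered from the deposited fold and p as the whole number that gives both, which worked for every peak of the 6 lists. The median was 28 tags at a desert summit of the pooled list and 30 at other summits. Library 1 had medians of 19 and 20, and library 2 had 11 in both. The median background at the summit was 2.02 tags for desert peaks and 2.37 for the others. Read totals are not in these lists, so depth is known only through such values: the lowest background in a list was 0.354 tags in wild-type library 1 and 0.145 in library 2, and 0.613 and 0.588 in KQ libraries 1 and 2.

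The share of desert sites was lowest among the strongest peaks, by less than the counting intervals. When all reproducible peaks were put in 5 nearly equal bins by −log10 q, deserts held 15.9%, 17.3%, 17.3%, 15.8% and 14.0% of the bins from weakest to strongest. The 95% exact binomial interval of the strongest bin was 12.3 to 15.8, that of the weakest 14.1 to 17.7, and they overlap. These intervals cover counting error only. Of the 100 reproducible peaks with the highest fold, 10 were in deserts, and the first of them ranked 19. Folds above 20 were found at 17 desert peaks (1.32%) and at 139 others (2.06%), whereas folds above 10 were found at 39.4% and 38.7%.

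**Figure D1:**
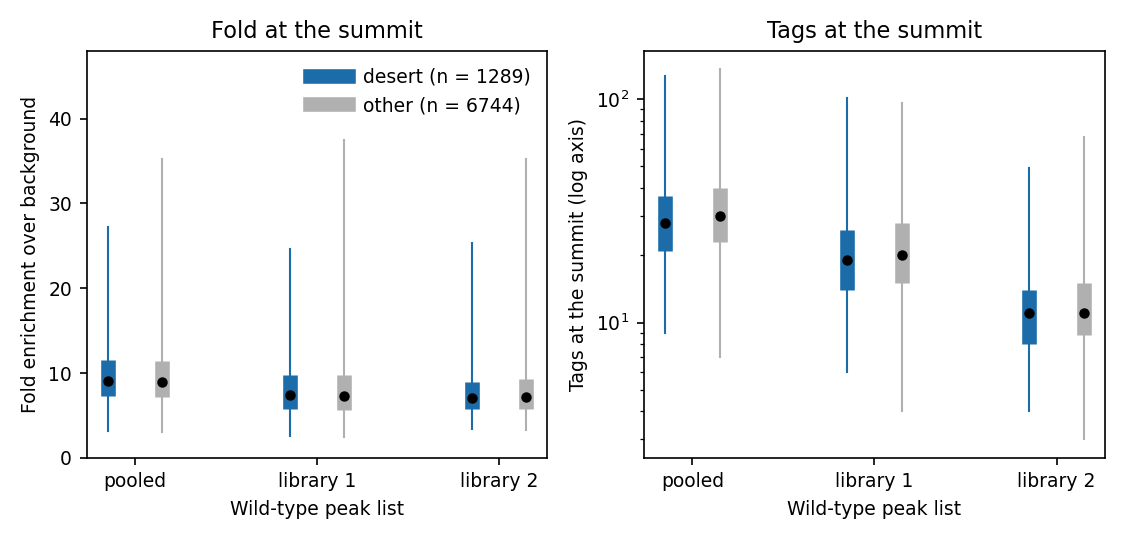
Fold enrichment (left) and tags at the summit (right, log axis) of desert and other reproducible wild-type peaks in the pooled list and in each library, with medians as points, quartiles as thick bars and the full range as lines. The medians lie side by side in each list (9.09 and 9.0 for pooled fold), and the highest folds belong to the other peaks.

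The 10 desert peaks with the highest fold lay beside genes of varied function. The first, chr5:56545006-56545490, had a fold of 27.2 in the pooled list, with 62 tags in library 1 and 25 in library 2. It lay 270.4 kb from MAP3K1, a kinase upstream of JNK and ERK, and 311.8 kb from ANKRD55 on the other side. A pooled KQ peak with 26 tags and a fold of 6.88 lay on it.

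The next 3 sites were alike in strength and differed in their distance from the nearest coding gene. The peak at chr7:118352966-118353245 (fold 26.2, 25 and 15 tags) was 110.3 kb beyond ANKRD7 and 1920 kb before KCND2, a voltage-gated potassium channel gene. The peak at chr4:135013258-135013557 (fold 25.9, 28 and 23 tags) lay 811.5 kb from PABPC4L in a desert that ends at PCDH18, a protocadherin gene. The peak at chr2:123093238-123093559 (fold 25.6, 34 and 20 tags) lay 931.9 kb from CNTNAP5, a neurexin family gene, and was one of the few with a KQ peak in both KQ libraries, at 16 and 13 tags. All of these had the higher tag count in library 1. In the single-library lists, the folds of the 10 peaks were 14.5 to 24.6 in library 1 and 8.91 to 19.5 in library 2, below the pooled fold in both libraries except at DPPA4 in library 1.

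The remaining 6 of the 10 had folds between 22.8 and 25.5. They lay between IRF2BP2, a transcriptional corepressor gene, and TOMM20, between CD83 and JARID2, a cofactor of Polycomb repressive complex 2, and between the appetite receptor gene MC4R and CDH20. The others lay between DPPA4 and NECTIN3, between the sodium-calcium exchanger gene SLC8A1 and PKDCC, and between the receptor genes NPBWR1 and OPRK1. Of the 10 peaks, 7 overlapped a pooled KQ peak, against 20.1% of all reproducible wild-type peaks. Strong peaks of both kinds had a larger share: above a fold of 20 it was 58.8% of the 17 desert peaks and 64.7% of the 139 others. The peak near SLC8A1 overlapped a peak of KQ library 1 only, and those near KCND2 and MC4R overlapped none. Library 1 alone gave the DPPA4 peak a fold of 24.6 and library 2 gave 8.91, the widest gap between libraries among the 10.

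The most remote sites were of ordinary strength. The distance from a desert summit to the nearest protein-coding gene had a median of 231.0 kb (quartiles 150.4 and 415.2). It was 100 to 200 kb for 523 peaks, 200 to 500 kb for 519, 500 to 1000 kb for 190 and more than 1000 kb for 57. The median fold was 9.09, 9.15, 9.10 and 8.90 in these classes, so fold hardly moved with distance, and the median −log10 q was 18.9, 18.3, 17.3 and 15.6.

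The farthest peak, chr4:33086473-33086658, lay 1940 kb from PCDH7, a protocadherin gene, with a fold of 7.06 from 12 and 8 tags. It was followed by peaks 1902 kb from AGA (fold 10.2), 1734 kb from C4orf33 (fold 12.1), 1719 kb from SLITRK1 (fold 9.37) and 1656 kb from IFTAP (fold 6.41). None of these 5 overlapped a peak of any KQ list, which 20.9% of all desert peaks and 21.3% of all reproducible peaks did. Their libraries each had 6 to 31 tags at the summit. Just inside the 100 kb limit were peaks 100.1 kb from GRIA3 (fold 6.99), 100.2 kb from ARRDC3 (fold 13.3) and 100.6 kb from ADCY8 (fold 10.6). Just outside were peaks 99.9 kb from VGLL3 (fold 13.5), 99.6 kb from SHQ1 (fold 14.8) and 99.6 kb from KIF2B (fold 5.40).

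Desert sites were sparser than sites near genes, and sparser still in the longest deserts. Between the first and last gene of each chromosome, deserts in gaps of up to 3 Mb covered 685 Mb, or 24.9% of the sequence outside longer gaps. They held 1208 of the peaks, 1.76 per Mb, against 3.26 other reproducible peaks per Mb of the rest. In gaps of 200 to 500 kb the density was 2.87 per Mb of desert, in gaps of 500 to 1000 kb 2.13, in gaps of 1000 to 2000 kb 1.44 and in gaps of 2000 to 3000 kb 1.01. The 44 gaps over 3 Mb held 79 peaks. Some gaps of 2000 to 3000 kb may also span a centromere or unassembled sequence, which was not measured. How much of each desert can be mapped with short reads was not measured.

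Most deserts had no site, and a minority held many. Of 1650 gaps over 200 kb, 561 (34.0%) had at least 1 desert peak: 255 had 1, 206 had 2 or 3, and 100 had 4 or more. These 100 gaps held 552 of the 1289 peaks (42.8%). A further 2 peaks lay beyond the last gene of their chromosome. Peaks were found on 21 of the 23 chromosomes, with 0 on chromosomes 19 and 22, whose deserts cover 1.45 and 5.06 Mb. Chromosome 8 had the most, 142, which were 26.1% of its reproducible peaks. Its density of 3.35 per Mb in gaps of up to 3 Mb was the highest of the 23, and the X chromosome had 0.708 per Mb.

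**Figure D2:**
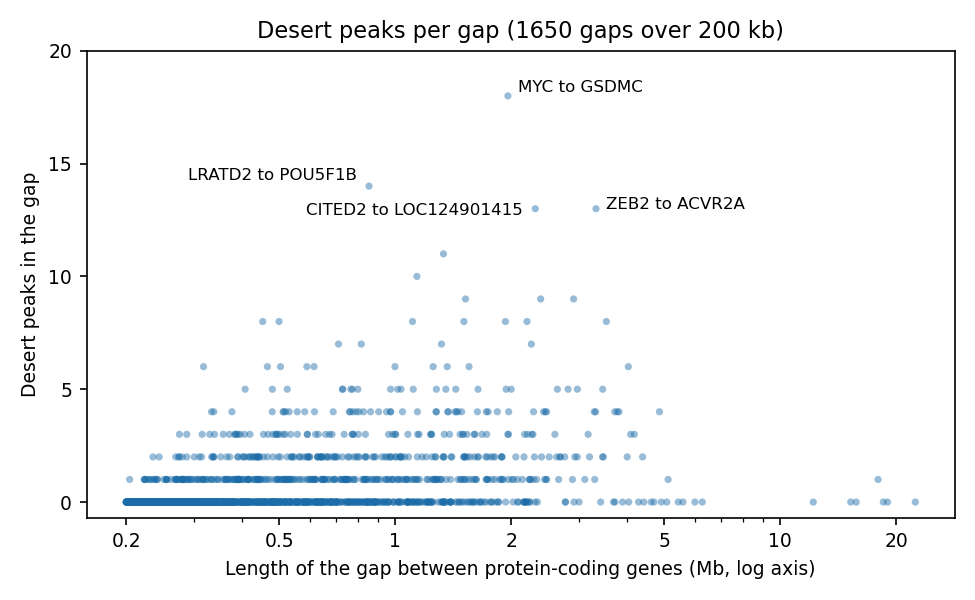
Number of desert peaks in each of the 1650 gaps between protein-coding genes longer than 200 kb (vertical) against the length of the gap in Mb (horizontal, log axis), 1 point per gap. The gap from MYC to GSDMC stands highest with 18 peaks, and most gaps lie at 0.

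The fullest deserts were those from MYC to GSDMC, from LRATD2 to POU5F1B, from ZEB2 to ACVR2A and beyond CITED2. MYC encodes a transcription factor that drives growth, and the 1962 kb from MYC to GSDMC on chromosome 8 held 18 peaks with folds from 4.02 to 12.1 and a median of 8.09. The 855 kb from LRATD2 to POU5F1B held 14, with folds from 4.27 to 10.5. This desert does not border MYC: between POU5F1B and MYC lies a separate gap of 318.2 kb with 1 desert peak. The deserts with 18 and 14 peaks had no fold above 12.1. Some of these modest folds came with many tags. Before POU5F1B, 1 peak had 61 and 35 tags in the 2 libraries at a pooled fold of 10.5. Another there had 38 and 16 tags at a fold of 5.59, against medians of 19 and 11 tags over all desert peaks. The part of local background in these folds and peak counts was not tested. Of the sites in these 2 deserts, 3 of 18 and 5 of 14 had a pooled KQ peak, against 19.5% of all desert peaks.

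The desert between ZEB2, a repressor of epithelial genes, and ACVR2A held 13 peaks over 3324 kb, and 2 had a KQ peak. Its strongest, chr2:147316309-147316681, had a fold of 18.8 with 29 and 16 tags. The desert beyond CITED2, a partner of the coactivators CBP and p300, held 13 peaks over 2311 kb, with folds from 5.49 to 10.9 and 3 KQ peaks. Among these 4 deserts, neighbouring peaks were closest in that before POU5F1B, with a median spacing of 24.3 kb, and widest in that of ZEB2 (224.3 kb), with 52.1 kb after MYC. The next deserts were those from TBL1XR1 to KCNMB2 with 11 peaks and from HAS2, a hyaluronan synthase gene, to ZHX2 with 10.

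**Figure D3:**
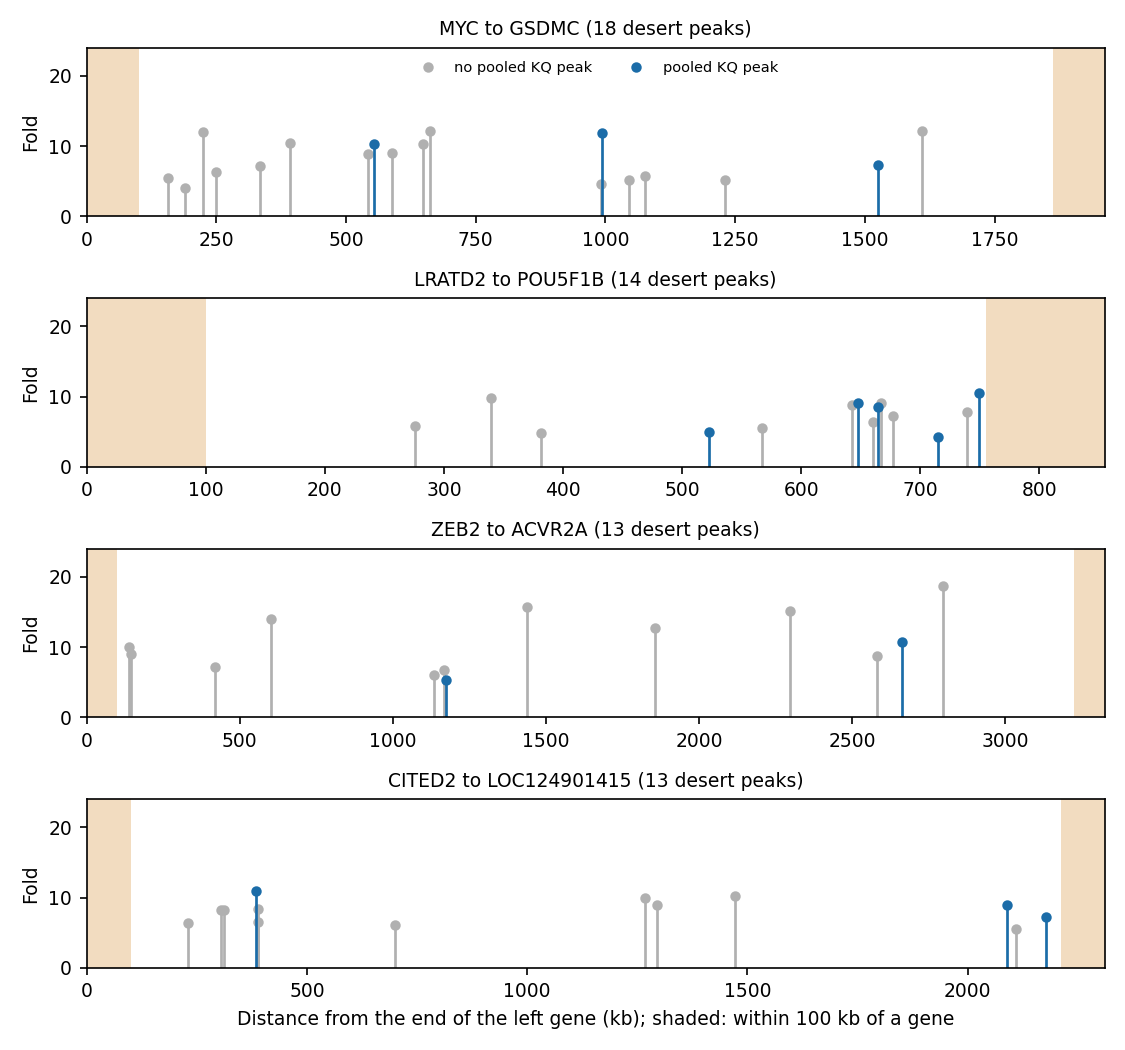
Position and pooled fold of every desert peak in the 4 gaps with most peaks, with distance in kb from the end of the left gene (horizontal) and fold (vertical), blue where a pooled KQ peak overlaps and grey where none does. Shading marks the 100 kb next to a gene, which the choice of members leaves out. The sites before POU5F1B crowd toward the right end, and those of ZEB2 are spread over the whole gap.

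Most desert peaks stood more than 50 kb from the next desert peak, and a minority formed groups. Neighbouring desert peaks of the same gap were a median of 73.3 kb apart (quartiles 23.7 and 208.4, 726 pairs). Of the pairs, 72 (9.92%) were closer than 5 kb and 296 (40.8%) closer than 50 kb. To the nearest reproducible peak of any kind, desert peaks had a median distance of 74.2 kb and other reproducible peaks 55.7 kb. Within 50 kb of another reproducible peak lay 41.2% of the desert peaks and 47.2% of the others.

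Joining desert peaks less than 50 kb apart gave 208 groups of 2 or more, with 504 of the 1289 peaks (39.1%), and 17 groups of 4 or more. The largest, 9 peaks over 106.8 kb, was the one before POU5F1B (chr8:127201182-127308003), where 4 peaks had KQ overlap. It was followed by 7 peaks over 131.0 kb between IRF2BP2 and TOMM20 (chr1:234866542-234997558), with folds from 3.62 to 25.5. The 7 peaks over 92.3 kb between LY86 and RREB1 (chr6:6823877-6916189) include the LINC03055 site and had 0 pooled KQ peaks. Over all 1289 desert peaks 19.5% had one, and counts in groups this small were not tested. A group of 6 lay between CEBPB, a factor that acts before PPARγ in adipocyte differentiation, and PTPN1 (chr20:50308764-50382470), with folds from 5.49 to 10.9 and 2 KQ peaks.

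**Figure D4:**
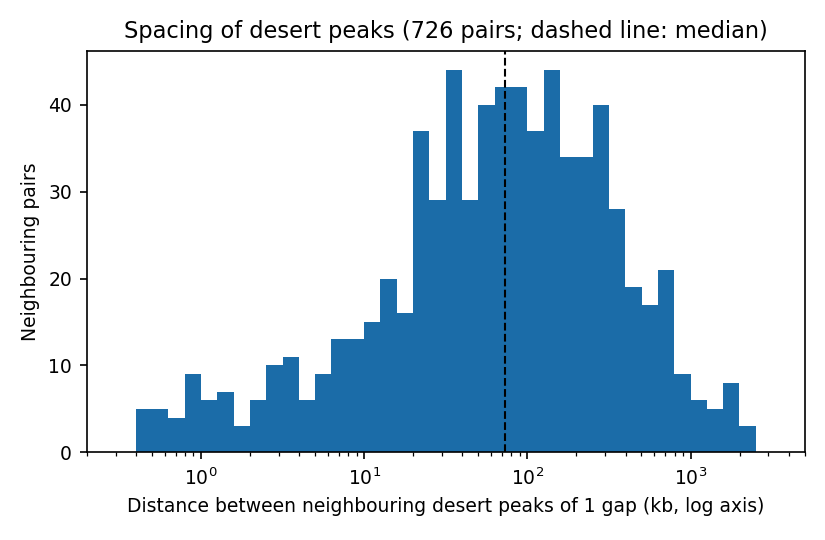
Distances between neighbouring desert peaks of the same gap (horizontal, kb, log axis) by number of pairs (vertical), with the median of 73.3 kb as a dashed line. Most of the 726 pairs lie between 20 and 500 kb, and 23 pairs are closer than 1 kb.

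The genes beside desert sites included 5 of the fatty acid and PPAR target genes. In all, 2799 protein-coding genes border a gap over 200 kb, and 1042 (37.2%) had a desert peak in such a gap. Of 68 fatty acid and PPAR target genes, 5 border such a gap and all 5 had one. LPIN1, a phosphatidate phosphatase gene of fat synthesis, had 2 (highest fold 18.9, the nearest at 476.4 kb). Both lay nearer to TRIB2, at the other end of this gap of 889.5 kb. PPARGC1A, the coactivator that drives mitochondrial gene expression, had 4 (highest fold 14.5, the nearest at 638.7 kb). All 4 lay nearer to ADGRA3, at the other end of a gap of 1276 kb. ACSL4, an acyl-CoA synthetase gene, had 2, both with a pooled KQ peak. They were the only 2 with one among the 10 desert peaks beside these 5 genes (20%, against 19.5% of all desert peaks). VLDLR and ELOVL6 had 1 each, with folds of 8.30 and 8.01. The ELOVL6 peak lay 158.6 kb away in a gap of 277.0 kb, nearer to ENPEP on the other side.

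Developmental and neuronal genes made up larger groups. Of 102 developmental transcription factor genes, 88 border such a gap, and 49 (55.7%) had a desert peak, among them NFIB (fold 21.5), LMO4 (19.6), NFIA (19.2), TBX3 (19.0) and GLI2 (18.9). The peak with a fold of 19.6 lay 1223 kb from LMO4 and 112.7 kb from PKN2 on the other side. SOX9 had 9 desert peaks and the luminal factor GATA3 had 9. Of 104 neuronal adhesion and synapse genes beside a gap, 67 (64.4%) had a desert peak, among them TENM2 (fold 17.8) beside those named above. These genes border longer gaps: the median of the longest gap was 791.4 kb for developmental factors and 1453 kb for neuronal genes, against 442.5 kb for all bordering genes. Per Mb of desert in gaps of up to 3 Mb, the developmental genes had 2.03 peaks and the neuronal genes 1.11, against 1.76 over all gaps. The developmental value rests in part on 1 locus, since MYC alone flanked 19 of its 152 peaks. The part of gap length in these shares was not tested.

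Mammary genes were few among the neighbours. Of the basal genes 2 of the 4 beside such a gap had a desert peak, and of the luminal genes 3 of 6. MME, a membrane peptidase of myoepithelial cells, had 2 desert peaks (highest fold 17.0) and ITGA6, an integrin of basal cells, had 1 (4.81). The luminal genes were GATA3, ANKRD30A (fold 17.9, 1076 kb away) and AREG, an EGFR ligand (7.76, 169.9 kb away).

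KQ peaks were found on about as many desert sites as on other sites. Of the 1289 desert peaks, 251 overlapped a pooled KQ peak (19.5%, 95% exact binomial interval 17.3 to 21.7), against 20.1% of all reproducible wild-type peaks and 20.3% of the others (interval 19.3 to 21.2). KQ library 1 had a peak on 121 desert sites (9.39%, against 9.86% of all) and KQ library 2 on 102 (7.91%, against 7.97%). The difference between desert and other peaks was -0.80 percentage points with the pooled KQ list, -0.56 with library 1 and -0.064 with library 2. On 53 desert sites (4.11%, against 3.90% of all) the pooled list and both KQ libraries had a peak. A wild-type site with no KQ peak is one that was not called in these KQ libraries. Over all peaks, the median background was 2.01 and 1.77 tags in KQ libraries 1 and 2. It was 1.41 and 0.448 in wild-type libraries 1 and 2. The part of depth and background in the missing calls was not tested.

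Overlap with KQ rose with wild-type strength, inside deserts and outside. From the weakest to the strongest of the 5 bins, 6.27%, 13.7%, 13.8%, 18.0% and 50.2% of desert peaks overlapped a pooled KQ peak. The values for other reproducible peaks were 7.69%, 10.6%, 15.2%, 22.1% and 44.9%. The intervals of desert and other peaks overlapped in every bin. Desert peaks with a KQ peak had a median of 40 tags in the pooled wild-type list, and those without one had 26.

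**Figure D5:**
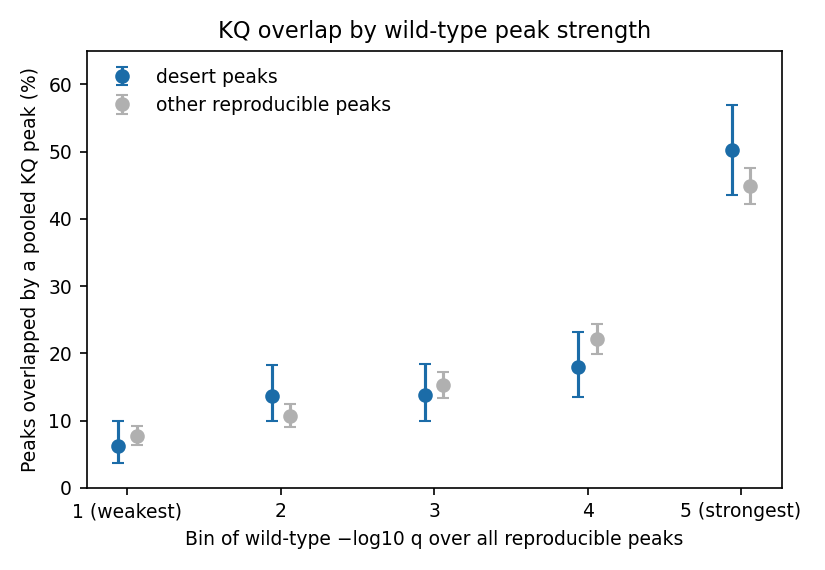
Share of wild-type peaks overlapped by a pooled KQ peak (vertical, percent) in 5 bins of wild-type −log10 q from weakest to strongest (horizontal), for desert and other reproducible peaks, with 95% exact binomial intervals as error bars. Both kinds rise from under 8% in the weakest bin to 50.2% and 44.9% in the strongest.

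With distance the KQ share was lower, within wide intervals. It was 21.2% (17.8 to 25.0) at 100 to 200 kb from a gene, 20.0% (16.7 to 23.7) at 200 to 500 kb, 15.3% (10.5 to 21.2) at 500 to 1000 kb and 12.3% (5.08 to 23.7) farther out. The median −log10 q was lower in the farther classes too, and its part in this order was not tested. Desert peaks inside a lncRNA span had a share of 18.9% (15.2 to 22.9), and those outside one had 19.8% (17.2 to 22.6).

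At shared desert sites the KQ peak usually had the lower fold of the pair. The pooled KQ fold had a median of 5.09 at the 251 shared desert sites, from 27 tags, where the wild-type fold had a median of 10.8 from 40 tags. The wild-type fold was the higher at 243 of the 251 (96.8%), and at 96.3% of the 1367 other shared sites. All these sites had to have a peak in both wild-type libraries, but only a pooled peak for KQ. A higher wild-type fold was thus favoured by the choice itself. The folds come from lists with different backgrounds, so their ratio is not a ratio of binding.

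The highest KQ fold on a wild-type desert site was 13.8 at a site 303.5 kb from PARD3, a cell polarity gene, and 471.4 kb from NRP1, a semaphorin and VEGF co-receptor gene. The KQ libraries had 27 and 28 tags there, and the wild-type libraries 45 and 17. The next were the sites between EVX1 and HIBADH, an enzyme of valine breakdown (KQ fold 12.1, wild type 18.7), between DIPK2B and KRABD4 (11.7 and 19.8), and between DAZL and PLCL2 (10.6 and 16.2). The site 114.1 kb from ACSL4 had a KQ fold of 10.4 and a wild-type fold of 8.01, with 24 and 18 tags in the KQ libraries and 16 and 11 in the wild-type libraries. All 5 had a peak in both KQ libraries.

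The strongest desert sites with no peak in any KQ list had wild-type folds above 20. Beyond those near KCND2 and MC4R, they lay 180.8 kb from VAPA, an endoplasmic reticulum contact protein gene (chr18:10140646-10140982, fold 21.4, 39 and 16 tags), and 105.9 kb from EDN1, the endothelin-1 gene (chr6:12402869-12403176, fold 20.9, 33 and 24 tags). The last lay 129.8 kb from USP38 and 208.6 kb from INPP4B, a phosphoinositide phosphatase gene (chr4:143055038-143055289, fold 20.8, 40 and 17 tags). Both wild-type libraries had 15 or more tags at each of the 5 summits.

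The share of all peaks that lay in deserts was close in the 4 libraries. It was 17.0% of 18143 and 17.1% of 17859 peaks in the wild-type libraries, and 16.9% of 1263 and 16.6% of 1035 in the KQ libraries. The means were 17.1% ± 0.108 (SD, n = 2) and 16.7% ± 0.174 (SD, n = 2), a difference of 0.32 percentage points, and the groups did not overlap (exact permutation test, two-sided, p = 0.33, the smallest that 2 against 2 libraries allow). The counting intervals of the KQ libraries, 14.8 to 19.0 and 14.4 to 19.0, cover both wild-type values. The sign turned at 50 kb from a gene, where the difference was -1.26 points. In number, the wild-type libraries had 3082 and 3061 desert peaks and the KQ libraries 213 and 172, a ratio of 16.0 (exact permutation test, two-sided, p = 0.33, n = 2 per group).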

How the data were processed

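Peak lists from 4 ChIP libraries and 2 pooled groups were used. The submitters' processing notes name Bowtie2, MACS2 and hg38. No source used here gives the caller settings or the control library. The lists of the authors give fold (a ratio over the caller's background), −log10 p and −log10 q of each peak as deposited. Desert and other peaks were compared by fold and q within a list. Fold was also set beside the fold of another list at the same site. The lists give no read totals. Tags at each summit were recovered as the whole number whose Poisson p and fold, with 1 added to tags and background, match the deposited values within 0.001 on the −log10 p scale.

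Overlap meant at least 1 bp. Genes were the 19974 protein-coding spans of the RefSeq table (GRCh38.p14), in which a few genes of unplaced sequence may carry a chromosome name. The distance was from the summit to the nearest span. Gaps over 3 Mb were left out of densities. The members and gene lists were chosen with earlier results of these data known, and lists are described by counts. Peaks named are the 10 with the highest fold, the 5 farthest, the 5 with the highest KQ fold, the 5 strongest without KQ, those in the fullest gaps and 3 on each side of the limit. Genes named are list members (up to 6 a list, by fold, of which 2 are not reported here) and some of the 207 that flank 4 or more desert peaks. The planned motif search of peaks had no genome and was made in promoter windows only. Python 3.11.15 with scipy 1.17.1 was used, and distances, overlaps and tag recovery were tested on simulated data. Alternatives are in the closing section.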

Additional observations from a re-analysis of the deposited data

How the results depend on the processing

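The desert limit and the gene set decide the number of desert peaks. It was 766 at 200 kb and 131 with all annotated genes, and 2013 without wild-type library 1 and 2634 without library 2, where a peak had to recur in only 1 library, a looser rule by construction. Their share of reproducible peaks was 23.2% at 50 kb, 9.54% at 200 kb, 1.63% with all genes, 15.2% without gaps over 3 Mb, and 16.4% to 16.7% with 1 wild-type library. The share with a pooled KQ peak was 16.8% with all genes, 13.96% and 12.03% without wild-type library 1 or 2, and 7.91% and 9.39% when KQ library 1 or 2 was left out. That share minus the one of other peaks was 0.50 points at 50 kb, -2.06 at 200 kb, -3.40 with all genes, -1.62 with 50% of the peak covered, -0.44 without gaps over 3 Mb, and -0.89 to -0.064 with a library left out. It was below 0 in 12 of 13 alternatives. The log2 difference in median fold was 0.15 with all genes, -0.021 with fold from wild-type library 2, and 0.013 to 0.022 with 1 wild-type library. It was above 0 in 10 of 11 alternatives. Median spacing was 83.0 kb at 200 kb, 30.9 kb with all genes, and 51.6 to 64.0 kb with 1 wild-type library. The desert share of wild-type minus KQ libraries turned to -1.26 points at 50 kb, and was 0.20 to 0.45 with a library left out. With the replicate block, pairing libraries by title number, it was 0.32 (exact paired permutation p = 0.5, the smallest for 2 pairs). With 0 mismatches the PPAR element was in 0% of the 10 promoter windows. The causes were not tested. The other 49 of 76 alternatives were counted as unchanged. They stayed within the spread of libraries, the counting interval or 1.5 times the count, with 1 exception. For the desert share of wild-type minus KQ libraries, only the sign had to be kept. That difference was 0.85 points at 200 kb and 0.080 with −log10 q of at least 5. After the data were seen, the fold of the 26 named desert peaks was also taken from each library, and it was below the pooled fold in both for 21 of them.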

Other observations

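The KQ list had desert sites of its own, and few KQ peaks of any kind were found in both KQ libraries. Of the 2846 pooled KQ peaks, 477 lay in deserts (16.8%, 95% exact binomial interval 15.4 to 18.2). Of these, 96 (20.1%, interval 16.6 to 24.01) overlapped no wild-type list, against 17.8% of all pooled KQ peaks. Their median KQ fold was 4.78, and that of KQ desert peaks shared with the pooled wild-type list was 4.98. The 5 with the highest fold lay in the deserts between TFPI, a coagulation inhibitor gene, and GULP1 (fold 10.97, 27 tags), between CTNNA2 and SUCLG1 (8.01, 18 tags), between LMO4 and PKN2 (7.45, 16 tags), between LSAMP and IGSF11 (7.16, 16 tags) and between SEPTIN7 and EEPD1 (7.13, 31 tags). The last was the only one of the 5 with a peak in both KQ libraries.

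Of the 2846 pooled KQ peaks, 354 were found in both KQ libraries. Of these 354, 61 lay in deserts (17.2%, interval 13.4 to 21.6). Among the 61, 3 overlapped no wild-type list (4.92%, interval 1.03 to 13.7), a share that was not counted over all 354. The 3 were chr7:36048180-36048468 beside SEPTIN7, chr10:2893178-2893484 between LOC107983989 and LOC124902536 (fold 6.25, 31 tags), and chr3:182212524-182212861, 498.2 kb from SOX2, a stem cell transcription factor gene (fold 4.69, 23 tags). Other sites of the 61, picked here after their values were seen, included one between KCNJ2 and SOX9 (KQ fold 8.60, wild type 17.5). Also picked were one between KLF4 and ACTL7B (5.15 and 10.3) and one between SHH and RNF32 (4.88 and 14.4). The KQ fold was the higher at others, such as those between BET1 and COL1A2 (7.74 and 4.35), TNP1 and TNS1 (9.88 and 8.01), and RPS23 and TMEM167A (6.88 and 3.31). How many of the 61 went each way was not counted.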
